A study of Mus musculus with 4 samples.

Results

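Vpreb1, Igll1, Vpreb3, Dntt, Rag1, Rag2, Cd93, Sox4 and Myb are 9 genes of early B cell development, among 31053 genes counted in single cells of the mouse spleen. They were listed by name with earlier values from these same libraries known, so the differences in their level between libraries are a description. Each was read per annotated B cell type and library, and then cell by cell in the type that the authors named "Trans B", taken here as transitional B cells.

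The cells came from spleens of C57BL/6 mice and were read by droplet single-cell RNA sequencing (10x Genomics) in 4 libraries, 1 per group. The groups were young wild type (WT) mice, aged WT mice, aged mice with a whole-body loss of miR-146a (the single knockout below), and aged mice that lacked miR-146a everywhere and miR-155 in T cells (the double knockout). The WT mice were miR155 fl/fl, so a floxed miR-155 locus was part of the control genotype. All aged groups were 15 months old and each was a pool of 3 to 6 mice. The sources used here do not give the age or pool size of the young mice, or the Cre driver of the T cell deletion. Cells were sorted as live (DAPI-) and CD45+ with low forward and side scatter. With 1 library per group no test between groups was possible, and a difference between pools cannot be told apart from one between genotypes. Intervals are at 95% and cover counting error only. Series of 4 values are in the order young WT, aged WT, single knockout and double knockout, and pairs of values in the order single and double knockout.

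B cells begin as pro-B cells, which cut and join the immunoglobulin heavy chain locus with the Rag1 and Rag2 recombinase, while Dntt (terminal deoxynucleotidyl transferase) adds untemplated bases at the joints. In pre-B cells the new heavy chain pairs with the surrogate light chain, made of the Vpreb1 and Igll1 proteins, and the Rag genes then act again on the light chain loci. In adult mice this takes place mainly in the bone marrow, and cells reach the spleen as transitional B cells, which still carry CD93. Sox4 and Myb are transcription factors needed at early stages, and Vpreb3 is a chaperone-like relative of Vpreb1 that stays on for longer. Vpreb1, Igll1, Dntt, Rag1 and Rag2 are shut off in mature B cells and are called the core genes below.

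The members lie on 5 chromosomes of mm10. Igll1 (ENSMUSG00000075370, chr16:16860671-16863985) and Vpreb1 (ENSMUSG00000059305, chr16:16868403-16870843) are both on the minus strand with 4417 bases between them. Rag1 (ENSMUSG00000061311, chr2:101638282-101649501, minus strand) and Rag2 (ENSMUSG00000032864, chr2:101624718-101632529, plus strand) lie 5752 bases apart. Dntt (ENSMUSG00000025014, chr19:41029275-41059525) and Vpreb3 (ENSMUSG00000000903, chr10:75943057-75949657) are on the plus strand. Myb (ENSMUSG00000019982, chr10:21124935-21160984), Sox4 (ENSMUSG00000076431, chr13:28948919-28953713) and Cd93 (ENSMUSG00000027435, chr2:148436640-148443563) are on the minus strand. The Vpreb1 transcript is 97.4% identical to that of its copy Vpreb2 over 759 aligned bases, so counts of these 2 genes are uncertain. Rag1 overlaps B230118H07Rik on the same strand, and Vpreb1, Vpreb3, Rag2, Sox4 and Myb overlap genes on the opposite strand.

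The 250 bases before the RefSeq start of the 5 core genes are shown because these genes were detected together in the same cells. They come from RefSeq on GRCm38.p6, whose table held 8 of the 9 members, all but Cd93. The gene spans above are those of GENCODE. That of Vpreb1 also takes in longer non-coding transcripts that begin further upstream, so its printed stretch lies before the start of the coding transcript but inside that span. Capitals mark E-boxes, short motifs that E2A proteins can bind. The form CAGGTG was searched for on both strands, so it can also read CACCTG in a printed line. The second form searched for was CAGCTG, which is the same on both strands.
Vpreb1 (chr16:16869256-16869505, minus strand): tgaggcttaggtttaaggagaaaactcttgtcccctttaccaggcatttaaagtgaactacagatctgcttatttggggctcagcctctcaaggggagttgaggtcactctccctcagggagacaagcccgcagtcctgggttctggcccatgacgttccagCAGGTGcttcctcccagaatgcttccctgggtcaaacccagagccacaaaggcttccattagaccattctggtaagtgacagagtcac
Igll1 (chr16:16863986-16864235, minus strand): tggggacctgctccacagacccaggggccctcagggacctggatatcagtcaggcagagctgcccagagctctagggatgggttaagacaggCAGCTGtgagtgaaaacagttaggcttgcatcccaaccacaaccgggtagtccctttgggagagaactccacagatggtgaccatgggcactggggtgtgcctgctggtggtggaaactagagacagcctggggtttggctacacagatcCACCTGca
Dntt (chr19:41029025-41029274, plus strand): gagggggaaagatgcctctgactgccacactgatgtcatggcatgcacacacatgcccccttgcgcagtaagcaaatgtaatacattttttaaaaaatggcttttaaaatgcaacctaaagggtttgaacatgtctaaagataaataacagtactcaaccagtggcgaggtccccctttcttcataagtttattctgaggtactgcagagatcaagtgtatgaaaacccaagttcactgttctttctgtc
Rag1 (chr2:101649533-101649782, minus strand): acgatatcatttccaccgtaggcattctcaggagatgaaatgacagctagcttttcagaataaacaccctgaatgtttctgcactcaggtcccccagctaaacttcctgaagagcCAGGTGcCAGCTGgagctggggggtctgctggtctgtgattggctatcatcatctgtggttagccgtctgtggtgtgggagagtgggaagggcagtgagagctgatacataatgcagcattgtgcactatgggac
Rag2 (chr2:101624462-101624711, plus strand): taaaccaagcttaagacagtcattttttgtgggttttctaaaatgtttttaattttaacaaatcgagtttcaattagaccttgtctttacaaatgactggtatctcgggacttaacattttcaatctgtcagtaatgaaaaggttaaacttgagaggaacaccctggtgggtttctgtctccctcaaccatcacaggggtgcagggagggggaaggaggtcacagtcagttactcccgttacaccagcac
Both strands of 300 bases per gene were searched, 250 before and 50 after the start. CAGGTG was found before Vpreb1, Igll1 and Rag1, and in 20.2% of 32851 RefSeq promoters. CAGCTG was found before Igll1, Rag1 and Sox4, and in 16.3% of promoters. A form of the site of EBF1, TCCC followed after 2 bases by GGGA, was in 0.904% of promoters and in none of the 8 members. A match is a string of letters, and no binding was measured.

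The libraries held 7626 (young WT), 6952 (aged WT), 5702 (single knockout) and 7297 (double knockout) barcodes, with total counts of 17561683 to 22399381 unique molecular identifiers (UMIs). The authors named 24143 of the 27577 barcodes, in 16 types. Trans B cells numbered 409, 334, 282 and 369 in the same order, which was 5.60% to 6.00% of annotated cells, with medians of 1797 to 2061.5 UMIs. Of all barcodes, 833 occurred in more than 1 library, 34 of them on Trans B cells. In the young WT library Trans B cells held Cd93 at 38.3 CPM (UMIs per 1000000 UMIs of the type and library), against 2.27 in follicular (Fo B) and 1.93 in marginal zone (MZ B) cells, which goes with their name.

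Both genes of the surrogate light chain were nearly absent from Trans B cells of the WT libraries and present in both knockout libraries. Vpreb1 had 3 and 0 UMIs in young and aged WT, against 343 and 222 in the single and double knockout. Its level was 541 CPM (interval 486 to 602) in the single knockout and 303 CPM (265 to 346) in the double knockout. Against 3 UMIs, the limit that a count of 0 allows, this was at least 124-fold and at least 69.4-fold higher than in aged WT. Igll1, which encodes lambda 5, had 0, 0, 265 and 180 UMIs, or 418 and 246 CPM in the knockout libraries, at least 95.8-fold and 56.3-fold higher than in aged WT. The copy Vpreb2 had 0, 0, 44 and 29 UMIs, and followed the same order.

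The genes of V(D)J recombination had the same pattern. Dntt had no UMI in Trans B cells of either WT library, 106 in the single knockout (167 CPM, 137 to 202) and 66 in the double knockout (90.1 CPM, 69.7 to 115). Rag1 had 2, 0, 52 and 37 UMIs. Rag2 had 0, 1, 32 and 33 UMIs. In each of these genes the knockout libraries lay above both WT libraries and their intervals did not overlap with those of WT. Against aged WT, Dntt was at least 38.3-fold and 20.6-fold higher in the single and the double knockout, and Rag1 at least 18.8-fold and 11.6-fold. The Rag2 ratios of 34.7 (5.79 to 1412) and 30.9 (5.18 to 1259) rest on 1 UMI in aged WT.

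Vpreb3, Cd93, Sox4 and Myb were present in Trans B cells of every library and higher in the knockouts. Vpreb3 was at 1204, 1012, 3433 and 2777 CPM, from 695 to 2175 UMIs. Its ratio to aged WT was 3.39 (3.11 to 3.70) and 2.74 (2.52 to 3.00). Cd93, the surface marker of immature B cells, was at 38.3, 34.9, 104 and 66.9 CPM. It was the member whose knockout and WT levels lay nearest to each other, with ratios to aged WT of 2.98 (1.84 to 4.97) and 1.91 (1.15 to 3.26). Sox4 was at 112, 102, 568 and 389 CPM, with ratios of 5.57 (4.31 to 7.31) and 3.82 (2.93 to 5.03). Myb, which also acts in haematopoietic progenitors, was at 17.4, 14.6, 221 and 116 CPM, with ratios of 15.2 (8.01 to 32.3) and 7.97 (4.13 to 17.2). In all 4 genes the order was single knockout, double knockout, and then the WT libraries, whose intervals overlapped for Cd93, Sox4 and Myb.

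**Figure D1:**
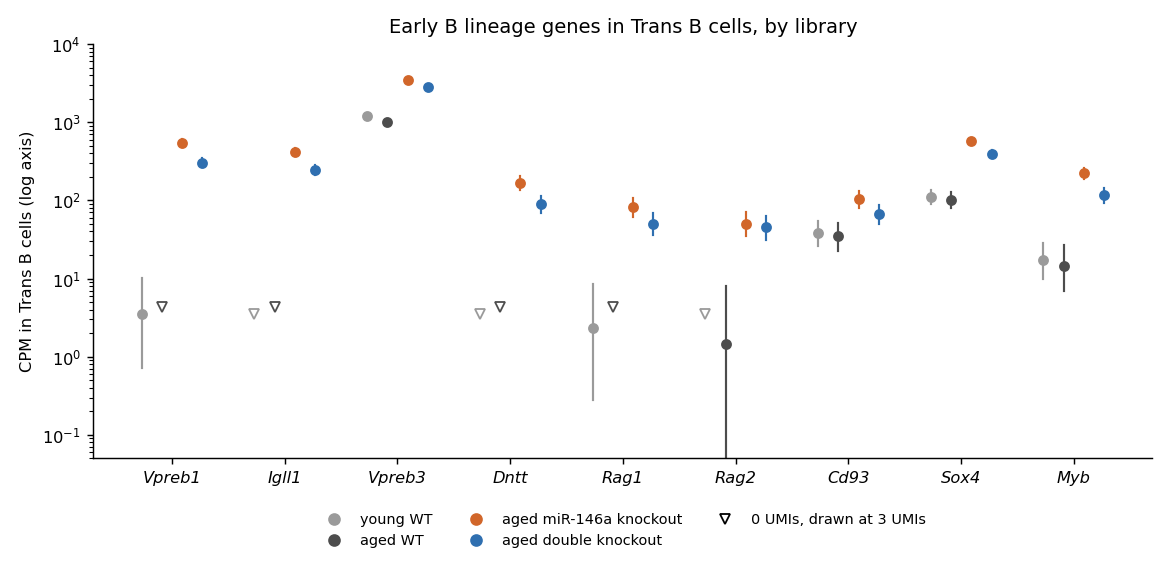
Level of the 9 genes in Trans B cells in CPM on a log axis, by library, with 1 point per library. Lines are exact Poisson intervals and open triangles stand for 0 UMIs, drawn at 3 UMIs. In every gene the 2 knockout libraries lie above both WT libraries, with Vpreb1 at 541 and 303 CPM.

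A gene was called higher or lower when the interval of the ratio lay wholly beyond 1.5-fold and the 2 libraries held at least 20 UMIs together. In the single knockout against aged WT, all 9 members were called higher in Trans B cells, where 2.48% of 6206 genes were. In the double knockout against aged WT 8 of 9 were called higher, all but Cd93, against a background of 1.55%. The members were chosen with these differences known, so nothing is read from the shares. Vpreb1, Igll1, Dntt and Rag1 had no UMI in aged WT and met the minimum through the knockouts alone. The comparisons share the aged WT library. Aged WT against young WT gave no call in either direction for the 4 members with enough UMIs (Vpreb3, Cd93, Sox4 and Myb), where 0.185% of genes were called higher and 0.0925% lower. The Vpreb3 ratio with age was 0.841 (0.763 to 0.927).

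Between the knockout libraries, every member had its higher level in Trans B cells of the single knockout. Vpreb1 alone was called lower in the double knockout, with a ratio of 0.560 (0.471 to 0.665), where 0.143% of genes were called lower and 0.0952% higher. The other ratios ran from 0.525 for Myb (0.396 to 0.693) to 0.892 for Rag2, whose interval included 1. These intervals take each UMI as an independent count and leave out the spread between cells. For Vpreb1, 5 cells held 41.4% of the UMIs in the single and 58.6% in the double knockout. The shares of cells with 2 or more core UMIs had overlapping intervals, at 13.5% (9.72 to 18.0) and 7.59% (5.10 to 10.8). The order of Vpreb1 turned round when cells with any UMI of Cd3e, Cd3d, Cd3g, Lyz2, Nkg7 or S100a8 were left out, with a log2 ratio of 0.88, and so did that of the summed core genes, at 0.64. This removed 31 of 38 and 21 of 28 of the cells with 2 or more core UMIs, so these values rest on few cells. Most cells removed had S100a8, a granulocyte gene found in 57.1% of Trans B cells and 61.9% of naive T cells of the single knockout library, and in 60.2% and 65.2% in the double knockout.

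Trans B cells held the highest level of Vpreb3, Cd93 and Sox4 among the 5 annotated B cell types in each library. Vpreb3 in Fo B cells was at 374, 332, 315 and 369 CPM, with no separation of knockout from WT. In MZ B cells it ranged from 181 to 330 CPM and in cells named GC Centroblast from 115 to 245 CPM. The higher Vpreb3 levels of the knockouts were found in Trans B cells and in cells named GC Centrocyte, with 288, 314, 966 and 803 CPM in the latter. The core genes were close to absent from Fo B and MZ B cells, with 1 to 9 UMIs summed over the 5 genes in any library. A core UMI was found in 0.135%, 0.113%, 0.788% and 0.571% of Fo B cells. In MZ B cells the shares were 0.0972%, 0.0902%, 0.482% and 0.379%. In both types the knockout values were the higher ones, with intervals that overlapped those of WT. Of the members in Fo B cells, only Sox4 was called: it was lower in aged than in young WT, at 10.8 against 25.7 CPM (ratio 0.421, 0.270 to 0.645), where 0.136% of genes were called lower and 0.373% higher. No member was called in Fo B cells of the single knockout against aged WT (0.455% of genes higher, 0.421% lower) or of the double knockout against aged WT (0.314% higher, 0.337% lower). Sox4 in MZ B cells was also at a lower value in aged WT, 6.00 against 12.0 CPM, with intervals that overlapped (3.49 to 9.60 and 8.14 to 17.0).

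**Figure D2:**
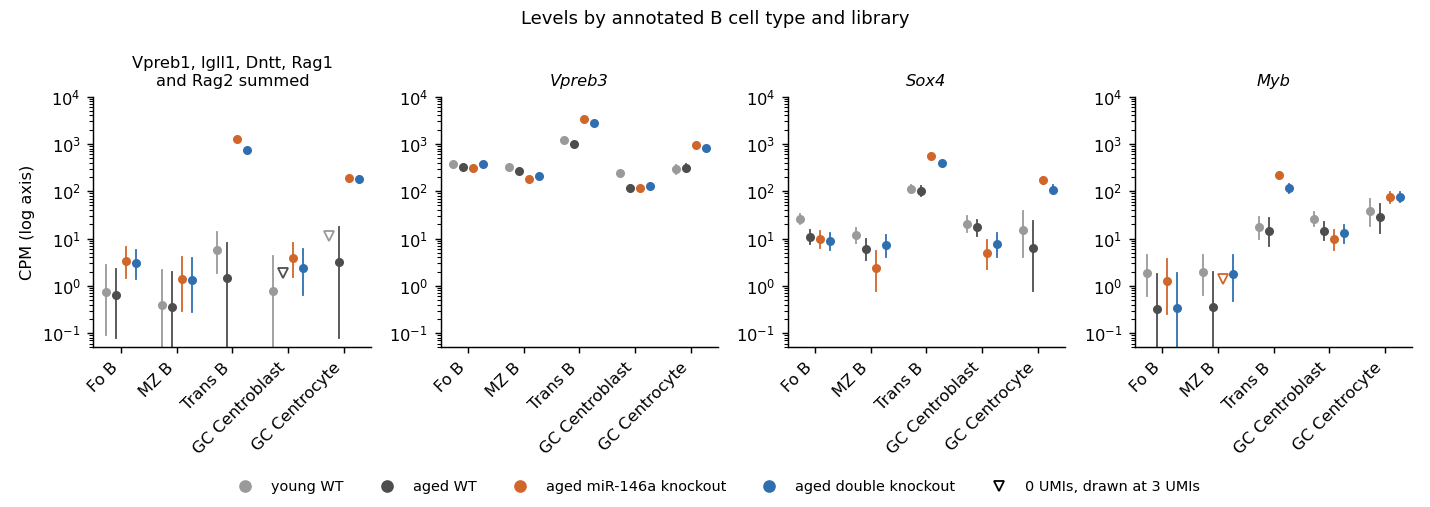
Level of the summed core genes, Vpreb3, Sox4 and Myb in the 5 annotated B cell types, in CPM on a log axis, with 1 point per library. Lines are exact Poisson intervals and open triangles stand for 0 UMIs, drawn at 3 UMIs. The knockout libraries separate from the WT libraries in Trans B and GC Centrocyte cells, where the summed core genes reach 1260 and 189 CPM. They do not separate in Fo B or MZ B cells. There the summed core genes are higher in the knockouts but rest on 1 to 9 UMIs per library.

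Cells named GC Centrocyte also carried core genes in the knockout libraries. They numbered 44, 51, 129 and 150, and Vpreb1 had 0, 0, 62 and 62 UMIs in them. Igll1 had 0, 0, 53 and 45 UMIs and Dntt 0, 0, 9 and 21. Against aged WT, 5 of 9 members were called higher in the single knockout (Vpreb1, Igll1, Vpreb3, Cd93 and Sox4, background 1.29%). In the double knockout 5 of 9 were called too, with Dntt in place of Cd93 (background 1.04%). Rag1 and Rag2 were under the UMI minimum in both comparisons and could not be called. Nor could Dntt in the single and Cd93 in the double knockout. Myb met the minimum and was not called. Of the called members, only Vpreb3 and Sox4 had UMIs in aged WT. The others met the minimum through the knockout alone. The backgrounds cover only genes that met the minimum, so the shares of 9 are not comparable with them. Cells named GC Centrocyte are a mixed set by their markers. The summed level of 8 T cell markers in them was 2359, 2218, 478 and 568 CPM, and that of 7 erythroid markers was 33.7, 19.0, 6717 and 4009 CPM. The part of this mixture in the member levels was not tested at the level of the type, and the cells with core genes are described one by one further on. Over all B cells together, all 9 members were called higher in the single knockout than in aged WT (background 2.56%), and 8 of 9 in the double knockout (background 1.93%). These calls count the same cells again, and Igll1, Dntt and Rag1 had no UMI in aged WT and met the minimum through the knockouts alone. Trans B and GC Centrocyte cells held 798 and 139 of the 955 core UMIs of all B cells in the single knockout. In the double knockout they held 538 and 145 of 699.

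The UMIs of the core genes lay in a part of the Trans B cells. A UMI of at least 1 core gene was found in 5 of 409 cells of young WT (1.22%, exact Clopper-Pearson interval 0.398 to 2.83) and 1 of 334 of aged WT (0.299%, 0.00758 to 1.66). It was found in 72 of 282 cells of the single knockout (25.5%, 20.5 to 31.0) and 55 of 369 of the double knockout (14.9%, 11.4 to 19.0). With every cell thinned to 1000 UMIs the shares were 0.246%, 0%, 18.2% and 12.1%. In naive T cells, which have left the stage that uses these genes, the unthinned shares were 1.81%, 0.402%, 1.40% and 1.18%. Their median depths were 2586.5, 2575, 2263 and 2205 UMIs, against 1910, 1863.5, 2061.5 and 1797 in Trans B cells. Dntt made up 33 of the 41 core UMIs of naive T cells in young WT, so the summed share is no background for the other core genes. Rag1 and Rag2 had no UMI in naive T cells of any library. Vpreb1 had a UMI in 0.371%, 0%, 0.930% and 0.118% of naive T cells, against 0.733%, 0%, 11.3% and 4.34% of Trans B cells. For Vpreb1 the intervals of the 2 cell types overlapped in young WT (0.160 to 0.730 and 0.152 to 2.13) and lay apart in both knockout libraries.

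Cells with 2 or more core UMIs are called core-positive. There were 38 in the single knockout (13.5% of Trans B cells, 9.72 to 18.0) and 28 in the double knockout (7.59%, 5.10 to 10.8). None was found in either WT library. The limit of 3 counts allows shares of up to 0.733% in young and 0.898% in aged WT, and the upper Clopper-Pearson bounds were 0.898% and 1.10%. Just outside the threshold, 34 and 27 knockout cells had exactly 1 core UMI. The surrogate light chain genes were concentrated in few cells. In the single knockout the 343 UMIs of Vpreb1 came from 32 cells, with up to 35 in 1 cell, while the 52 UMIs of Rag1 came from 35 cells with at most 4. In the double knockout 16 cells held the 222 Vpreb1 UMIs and 31 cells the 37 Rag1 UMIs.

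**Figure D3:**
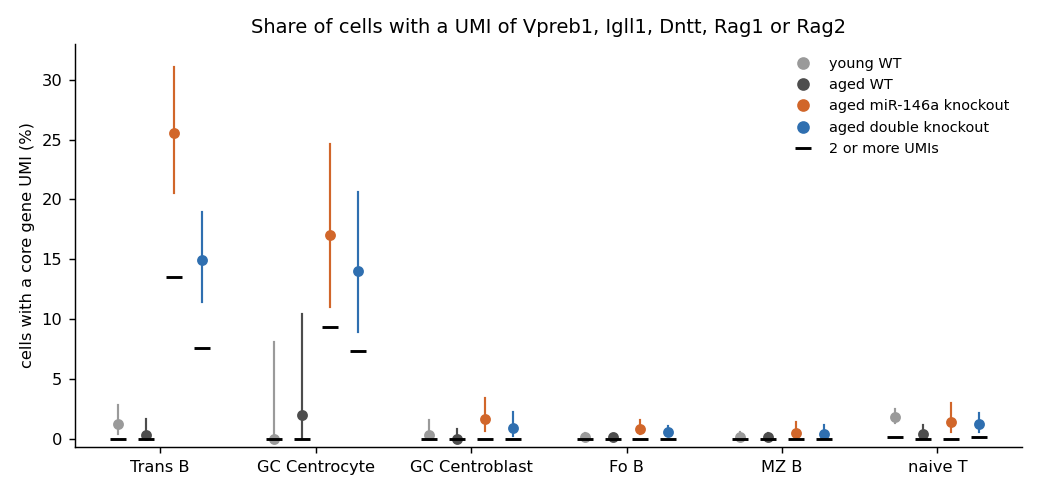
Share of cells with a UMI of a core gene, in percent, by annotated type and library. Points are the shares with 1 or more UMIs, lines their exact Clopper-Pearson intervals, and black dashes the shares with 2 or more. Trans B cells of the knockout libraries reach 25.5% and 14.9%, while Fo B, MZ B and naive T cells stay under 2% in every library.

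Both parts of the surrogate light chain were found in the same cells. In Trans B cells of the single knockout, 32 cells had Vpreb1, 28 had Igll1 and 25 had both, where the product of the shares gives 3.18 cells. In the double knockout 16 had Vpreb1, 18 had Igll1 and 15 had both (product 0.780). Every cell with Dntt also had Vpreb1 and Igll1, which was 14 of 14 cells and 10 of 10. The reverse did not hold, since only 14 of the 32 and 10 of the 16 cells with Vpreb1 had Dntt. Rag1 and Rag2, whose proteins work as 1 complex, were found together in 10 cells of 35 and 27 (product 3.35), and in 6 cells of 31 and 25 (product 2.10). Of the 10 pairs of core genes, all 10 were above the product of the shares in both libraries. Observed over product ran from 2.77 to 10.1 in the single knockout and from 2.86 to 23.1 in the double knockout. Within 4 strata of depth these ranges were 2.88 to 6.65 and 2.65 to 10.8. Without cells that had a UMI of another lineage, 89 and 116 cells were left. In the single knockout Rag1 with Rag2 was then at 1.27, with 1 cell that had both, Vpreb1 with Igll1 at 17.8, and Dntt, left in 1 cell, was found with neither Rag gene. All pairs come from the same cells and depths, so they are not independent.

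Single cells show the layout. In the single knockout, 1 Trans B cell of 3266 UMIs held 23 UMIs of Vpreb1, 19 of Igll1, 22 of Dntt and 2 of Rag2, with 2 of Ighm and 5 of the light chain genes. Another, of 2299 UMIs, held 4 UMIs of Rag1 and none of Vpreb1, Igll1 or Dntt, with 12 of Ighm and 42 of the light chain genes. In the double knockout, 1 cell of 4436 UMIs held 28 UMIs of Vpreb1, 24 of Igll1, 16 of Dntt and 41 of Vpreb3, with 20 of Ighm and 2 of the light chain genes. These cells were picked after their values were seen. At least 3 core genes were found in 21 and 14 cells, and all 5 in 4 and 2 cells.

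The members that are not core genes did not separate the core cells in the same way. Vpreb3 was found in all 66 core-positive cells, but also in 95.4% and 88.3% of all Trans B cells of the single and the double knockout. Sox4 and Myb were found together in 65 of 282 cells (product 39.7) and 43 of 369 cells (product 18.7). Over the 6 pairs of Vpreb3, Cd93, Sox4 and Myb, observed over product ran from 1.03 to 1.64 and from 1.07 to 2.35. Of the cells with Rag1, 29 of 35 and 20 of 31 also had Sox4.

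**Figure D4:**
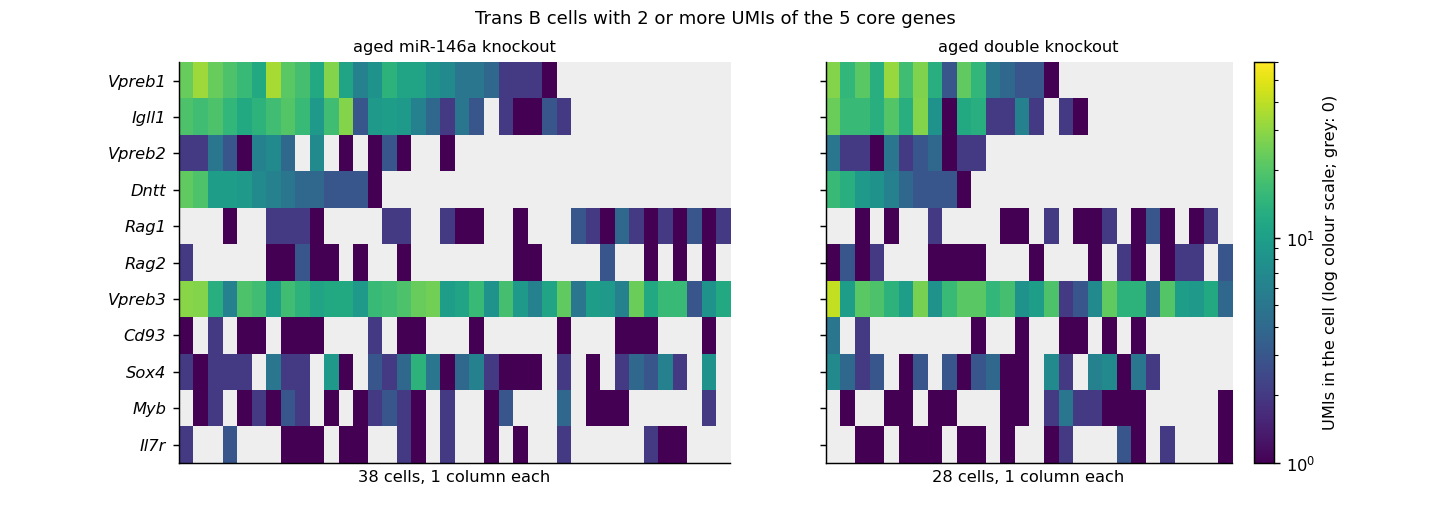
UMIs of 11 genes in each core-positive Trans B cell of the knockout libraries, with 1 column per cell, ordered by Dntt, then Vpreb1, Igll1 and depth; colour gives the UMIs on a log scale and grey is 0. All cells with Dntt, at the left of each panel, also have Vpreb1 and Igll1, and the cells at the right have Rag1 or Rag2 without them, while Vpreb3 is present in all 38 and 28 cells.

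The core-positive cells were somewhat deeper than the others. Their median was 2333.5 UMIs (1121 to 7835) in the single knockout, against 2012.5 in cells with no core UMI, and 2169 (1008 to 6594) against 1792 in the double knockout. The highest cell was below the 9001 UMIs that limited annotated cells. The 4 genes of the T and NK lineages used to look for mixed droplets (Cd3e, Cd3d, Cd3g, Nkg7) had a UMI in 6 of 38 and 1 of 28 core-positive cells, and in 10.3% and 5.15% of all Trans B cells. In the single knockout most T cell UMIs came from 1 cell, which held 13 of the 14 Trbc2 UMIs. Haematopoietic progenitor markers were at or near 0 in Trans B cells: Kit, Cd34, Hlf, Gata2 and Mpo had no UMI in any library, and the 7 genes summed to 4.65 to 9.56 CPM. Myeloid markers moved with the knockout libraries, with 5 of 6 detected (Csf1r at 0) and sums of 135, 103, 931 and 1040 CPM in Trans B cells. The T cell markers summed to 115, 67.0, 215 and 66.9 CPM (8 of 8 detected) and the erythroid markers to 62.7, 40.8, 175 and 71.0 CPM, with Trbc2 and Hbb-bs called higher in the single knockout than in aged WT. Their part in the member levels was not tested; in core-positive cells the myeloid sum was 924 CPM, against 998 in cells with no core UMI, the T cell sum 231 against 78.5 CPM and the erythroid sum 156 against 119 CPM.

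Trans B cells of the knockout libraries differed by which core genes they held. Cells with Dntt (14 and 10) had the lowest level of Ighm, the mu heavy chain, at 2797 and 2844 CPM. Cells with Vpreb1 or Igll1 and no Dntt (21 and 9) had 5308 and 6632 CPM. Cells with Rag1 or Rag2 alone (37 and 36) had 8282 and 9495 CPM, and cells with no core UMI (210 and 314) had 8719 and 9818. Of the cells with Rag1 or Rag2 alone, 11 and 10 were core-positive and the rest held 1 core UMI. A cell with 1 core UMI at these depths may still hold other core transcripts. The light chain constant genes Igkc, Iglc1, Iglc2 and Iglc3 were summed. They were at 4275 and 1495 CPM in Dntt cells, 11301 and 11607 in surrogate light chain cells without Dntt, 10167 and 14655 in Rag cells, and 21653 and 28174 in the rest. Naive T cells, which do not make immunoglobulin, held the light chain genes at 1181 and 1105 CPM and Ighm at 792 and 719 CPM. The light chain level of the Dntt cells in the double knockout was thus close to that in cells of another lineage.

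Early B genes followed different courses over the same sets. Lef1, a transcription factor of pro-B and pre-B cells, was at 579 and 583 CPM in Dntt cells, 133 and 104 in surrogate light chain cells without Dntt, and 26.6 and 27.5 in cells with no core UMI. In Rag cells of the single knockout it was at 37.7 CPM. Il7r, the receptor for the growth factor IL-7, was at 200 (95.8 to 367) and 219 CPM (80.3 to 476) in Dntt cells. In Rag cells it was at 390 (265 to 553) and 270 CPM (160 to 427), with intervals that overlapped those of Dntt cells. In the rest it was at 151 and 72.7 CPM. Vpreb2 had a UMI in 11 of 14 and 10 of 10 Dntt cells, and in no cell with Rag alone. The member Sox4 was at 619 and 875 CPM in Dntt cells, and at 1269 and 1125 CPM in Rag cells. Ebf1, the main transcription factor of B lineage entry, was at 4145 to 6057 CPM in all 3 sets with core genes, against 3769 and 3052 in the rest. Cells were sorted into these sets by their measured core genes, so the differences are a description.

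**Figure D5:**
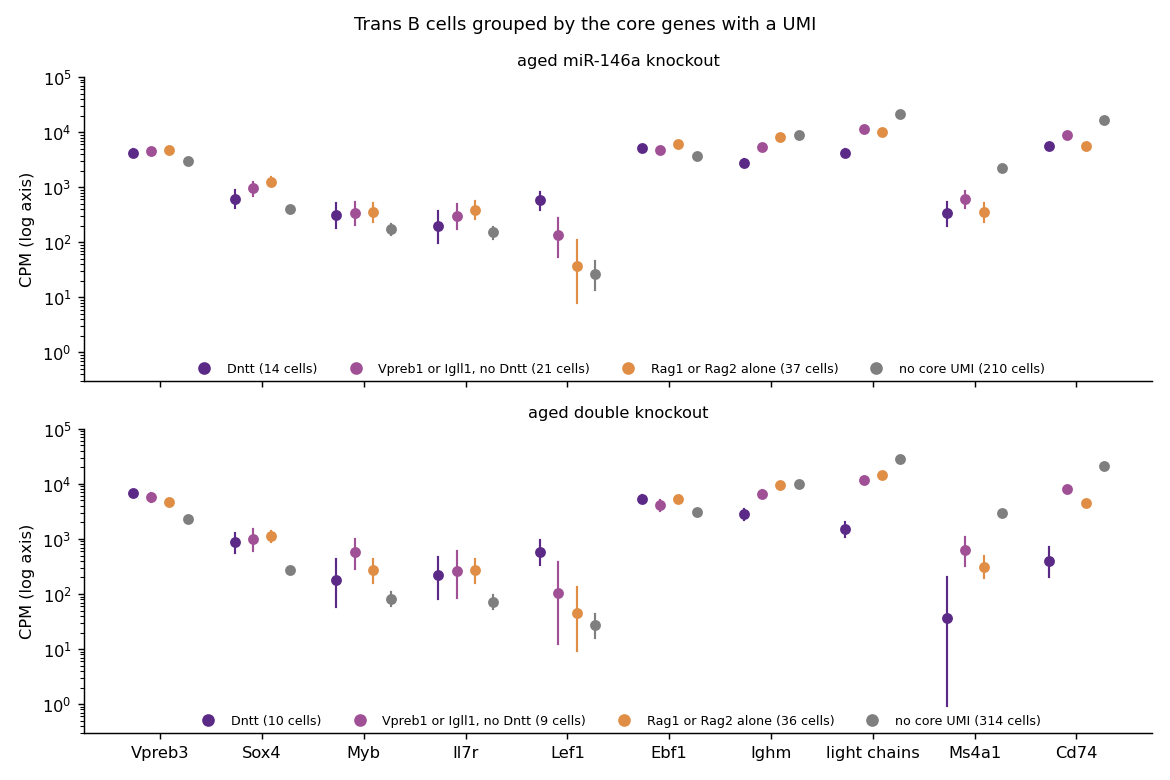
Level of 10 genes or sums in Trans B cells of the knockout libraries, in CPM on a log axis, with cells grouped by the core genes they hold; lines are exact Poisson intervals. Light chain genes and Ighm are lowest in the cells with Dntt (4275 and 2797 CPM in the single knockout), and Lef1 is highest there (579 CPM).

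Set against Trans B cells with no core UMI in both knockout libraries (66 against 524 cells), the core-positive cells had more of the other early members and less of the mature programme. The ratios were 2.08 for Vpreb3 (1.93 to 2.24), 2.66 for Cd93 (1.69 to 4.11), 2.92 for Sox4 (2.41 to 3.53) and 2.83 for Myb (2.04 to 3.88). The 20 early B transcription factor and surface genes summed to a ratio of 1.41 (1.34 to 1.48). Of these, Vpreb2 and Arpp21 had 73 and 22 UMIs in the core-positive cells and none in the cells with no core UMI. Lef1 had a ratio of 11.9 (7.49 to 19.4) and Spn (CD43) of 5.77 (2.58 to 12.8). Pax5, which marks the lineage throughout, had a ratio of 0.981 (0.674 to 1.39). The 12 mature B genes summed to 0.364 (0.331 to 0.399), the immunoglobulin genes to 0.359 (0.344 to 0.375) and pre-B cell receptor signalling genes to 0.743 (0.704 to 0.783). Ms4a1 (CD20) was at 323 against 2636 CPM and Fcer2a (CD23) at 23.1 against 137 CPM. Cd79a and Cd79b, the signalling chains of the receptor, had a UMI in 100% of the core-positive cells.

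Over all genes, with the 1261 Trans B cells of the 4 libraries that had no core UMI as reference, the 8 genes most enriched in core-positive cells were Vpreb2, Arpp21, Selenom, Tmem176b, Fcrl6, B3gnt2, Socs2 and Smtnl2. Vpreb2 and Arpp21 had 73 and 22 UMIs in the 66 cells and none in the reference cells. Tmem176b had 29 UMIs in the 66 cells and 9 in the reference cells, a ratio of 48.5. The genes most depleted included Ms4a1, Iglc2, Iglc3, Cd74, Btla, 9930111J21Rik2 and Fcer2a, of which Cd74, the class II invariant chain, was at 5260 against 22889 CPM. All 66 core-positive cells came from the knockouts, while the reference held 404 young and 333 aged WT cells. These ratios thus mix a difference between libraries with one between cells. Within the single and the double knockout, Cd74 was at 5492 against 16808 and 4894 against 20951 CPM. For 9930111J21Rik2 the whole reference was at 115 CPM, and its knockout cells at 39.9 and 58.2 CPM.

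Division genes differed between the core-positive cells of the 2 types, as they did between the types as a whole. The 12 cell cycle genes summed to 88.3, 114, 152 and 138 CPM in all Trans B cells. In all GC Centrocyte cells they summed to 4613, 3671, 4680 and 4413 CPM. In Trans B cells Mki67 or Top2a had a UMI in 1 of 38 and 0 of 28 core-positive cells. In GC Centrocyte cells, 12 of 129 and 11 of 150 were core-positive, none in WT, and 11 of 12 and 10 of 11 of them had Mki67 or Top2a. The summed cell cycle list in the core-positive GC Centrocyte cells was at 7963 CPM, against 3901 in those of the same type with no core UMI (ratio 2.04, 1.91 to 2.19). Mef2b, S1pr2, Fas and Bcl6, which mark germinal centre B cells, had no UMI in these 23 cells, and Ms4a1 had 1. In GC Centrocyte cells with no core UMI, these 4 genes were found in 62.3%, 37.3%, 41.9% and 8.90% of cells. Mki67, a gene of dividing cells that the germinal centre list also holds, was found in 69.6% of the core-positive and 52.5% of the other cells. The core-positive GC Centrocyte cells had Sox4 in 78.3%, Myb in 78.3% and Vpreb3 in 100%, with Sox4 at 726 against 52.4 CPM. Those 4 genes go against the name of the type in these cells, and Mki67 does not.

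The 4 members that are not core genes were also higher in Trans B cells without any core UMI. In those cells, against aged WT, Vpreb3 had ratios of 2.97 (2.71 to 3.26) in the single knockout and 2.29 (2.09 to 2.51) in the double knockout. The Sox4 ratios were 4.03 (3.03 to 5.42) and 2.76 (2.07 to 3.72), and those of Myb were 13.2 (6.58 to 29.8) and 6.27 (3.06 to 14.5). Cd93 had 2.66 (1.57 to 4.58) and 1.38 (0.782 to 2.47), the last of which included 1. Il7r had 4 UMIs in aged WT and ratios of 25.8 (9.63 to 97.4) and 12.4 (4.54 to 47.7). A cell with no core UMI at these depths may still hold core transcripts.

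Among other early B genes, 9 of 18 tested were called higher in Trans B cells of the single knockout than in aged WT, and none lower (background 2.48% higher; median log2 ratio 0.77, against 0.04 over all genes tested). They were Ebf1, Tcf3, Lef1, Il7r, Cd72, Spn, Smarca4, Vpreb2 and Cecr2. Vpreb2 had no UMI in aged WT and met the UMI minimum through the knockouts alone, and Spn was at 4.37 CPM in aged WT. The backgrounds cover only genes that met the minimum, so the shares of this list are not comparable with them. Il7r was at 17.4, 8.74, 197 and 101 CPM across the libraries and Ebf1 at 2142, 2359, 4244 and 3379 CPM. In the double knockout, 4 of 17 were called higher (Il7r, Cd72, Smarca4 and Vpreb2; background 1.55%), with a median of 0.49 against 0.02. Of 12 pre-B cell receptor signalling genes only Irf4 was called, in the single knockout (3.67, 1.94 to 7.42). Of 12 mature B genes, 6 were called lower in the single knockout (Fcer2a, Cr2, Ighd, Cd55, Ms4a1 and H2-Aa; background 1.05%) and 1, Cr2, in the double knockout (background 0.284%). The complement receptor gene Cr2 was at 89.5, 109, 37.9 and 45.1 CPM. With age none of these genes was called. These lists were drawn up with earlier results of the data known, and fewer mature cells and less RNA per cell of mature genes cannot be told apart in sums over a type.

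Over 20 points, each a B cell type in a library, the genes whose level was most like the summed core genes were Gfra1 (Pearson r 0.985 of log2 values with 10 CPM added), Socs2 (0.979), Lhpp (0.976), Bst1 (0.973), Ptgr1 (0.968), Vpreb2 (0.959), Eef2k (0.957) and Capsl (0.954), out of 9587 genes ranked. Sox4 (0.869), Myb (0.856), Vpreb3 (0.806) and Cd93 (0.805) followed less closely. Gfra1 was at 1.16, 1.46, 47.4 and 23.2 CPM in Trans B cells. The points share libraries and depth, 4 of them (Trans B and GC Centrocyte cells of the knockouts) hold most core UMIs, and the correlations are a description.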

How the data were processed

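The members and every gene list were chosen with earlier results of these data known. The authors deposited raw UMI counts for 4 libraries, made with Cell Ranger 3.0.0 on mm10 per the submitters' processing notes. They also deposited 1 of 16 cell type names for each annotated barcode; no source used here gives the annotation release or how names were assigned. Both 3' and 5' chemistry appear in the labels, and doublet removal is not described; no doublet caller was run and no cell was filtered beyond the authors' names. Unnamed barcodes stayed out of the comparisons.

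UMIs were summed per type and library and given as CPM with exact Poisson intervals, ratios with conditional binomial intervals and shares with exact Clopper-Pearson intervals, all at 95% and for counting error only. Against 0 UMIs, a fold was taken against 3 counts per library. Calls needed an interval wholly beyond 1.5-fold and at least 20 UMIs. Shares were repeated with cells thinned to 1000 UMIs, which left 406, 334, 275 and 363 Trans B cells (young WT, aged WT, single and double knockout). Up to 8 genes per rule were named: those most correlated with the summed core genes over type and library, and those whose interval bound nearest to 1 was highest or lowest between core-positive cells and cells with no core UMI. Some genes that these rules or lists hold are not reported here. Single cells and list genes given as examples were chosen after their values were seen. Alternatives were TMM (edgeR 4.0.16) and size factors (DESeq2 1.42.0), no UMI minimum, means over cells, depth strata, other definitions of core-positive and leaving out cells with UMIs of other lineages. Scripts ran in Python 3.11.15 with numpy 2.4.6, scipy 1.17.1 and pandas 2.3.3. The ratio intervals and calls were tested on simulated independent counts, which leave out the spread between cells.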

Additional observations from a re-analysis of the deposited data

Results flagged for a closer look

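Barcodes without a cell type name, which the comparisons did not use, held the 5 core genes at 76.1 CPM in the single knockout and 45.8 CPM in the double knockout, above 3.51 CPM in young WT and 1.07 CPM in aged WT. The UMIs numbered 365 and 189 in the knockout libraries, and 347 and 174 of them lay in 14 and 9 core-positive barcodes, of 870 and 703 unnamed ones. Of these, 10 and 7 held more than 9001 UMIs, the highest total of any named cell, and their median totals were 10000.5 and 9997 UMIs. No unnamed barcode of either WT library was core-positive.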

How the results depend on the processing

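Of 106 alternative values of the main results, 76 stayed within their limits, 29 moved and 1 called value changed sign; of 324 others, these were 274, 49 and 1. A change of sign was counted only for called values. Scaling by TMM or size factors shifted all genes by under 0.1 on the log2 scale. With no UMI minimum, the genes called in Trans B cells numbered 18 higher and 9 lower (aged against young WT), 11 higher and 21 lower (double against single knockout) and 32 lower (double knockout against aged WT), and 8 were higher in all B cells (double against single knockout). Leaving out cells with a UMI of another lineage removed 193 of 282 and 253 of 369 Trans B cells of the knockouts. The log2 ratios of double to single knockout then changed sign, to 0.64 for the summed core genes and 0.88 for Vpreb1 in Trans B cells. Values that were not called changed sign too: to 0.83 for the summed core genes in all B cells (from -0.57), to 1.12 for Igll1 and 0.08 for Cd93 in Trans B cells, and, between aged and young WT, to 0.22 for Rag1 and 0.08 for Myb. Myb also turned to 0.13 without cells with Cd3e, Cd3d, Cd3g or Nkg7. Without other-lineage cells, the summed core genes of the single knockout were at 6.33 against aged WT in all B cells. A mean over cells gave -0.77 for double against single knockout in all B cells. The cause was not tested.

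The share of Trans B cells with a core UMI was 0.246% (young WT), 0% (aged WT) and 18.2% (single knockout) after thinning, and 0%, 0%, 13.5% and 7.59% (double knockout) with at least 2 UMIs. Observed over product without other-lineage cells was 17.8 for Vpreb1 with Igll1, 17.8 for Vpreb1 with Dntt and 1.27 for Rag1 with Rag2 in the single knockout. In depth strata it was 10.8 and 9.90 for the first pairs in the double knockout. The log2 ratio of core-positive to other cells for the mature B list was -1.32 with at least 2 core genes, -2.24 over every B type and -3.17 in GC Centrocyte cells (single knockout), and in the double knockout -2.66 over every B type and -2.65 in GC Centrocyte cells. For the cell cycle list it was 2.96 and 3.04 over every B type, and 1.78 with at least 1 core UMI in the double knockout.

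No paired analysis was possible because each group has 1 library and the labels give no shared replicate numbers. For the same reason no replicate was left out, and depth limits most WT values of the core genes to upper bounds.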

Other observations

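Outside the B cell types, Dntt was also found in cells named DC/Mac in all 4 libraries, with 31, 12, 25 and 18 UMIs (young WT, aged WT, single and double knockout). Siglech, a marker of plasmacytoid dendritic cells, had a UMI in 7 of 9, 2 of 2, 6 of 8 and 9 of 9 of the cells with Dntt, and in 14 of 97, 5 of 42, 6 of 150 and 5 of 136 of those without. Vpreb1 or Igll1 was found in at most 1 Dntt cell of a library there. Sox4 was at 70.9, 231, 165 and 141 CPM and Myb at 25.0, 44.3, 41.6 and 72.7 CPM in DC/Mac cells. Myb was also present in cells named Gran, at 26.0 and 29.4 CPM in the single and double knockout.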
